A study of Mus musculus with 24 samples.

Results

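The 50 genes described here encode proteins of late G2 phase and mitosis, from the kinase that starts division to the factors that split the daughter cells. They were taken from a fixed list by gene symbol, with a mean raw count of at least 10 over the libraries. The count table holds 55487 genes, all 50 listed genes met that limit, and the lowest mean, 116 counts, belonged to Cdc25c. All 50 also passed the filter on low counts that left 14535 genes for testing. The genes are sorted below into 8 roles.

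Messenger RNA was sequenced from bone-marrow-derived dendritic cells (BMDC), grown from mouse marrow with GM-CSF, a cytokine that drives myeloid growth. Marrow came from male and female mice 8 to 10 weeks old. Every mouse carried ARPC4 Flox/Flox alleles, in which sequence of Arpc4, a subunit gene of the actin-branching Arp2/3 complex, can be removed by Cre recombinase. Control cultures (WT) were CD11c-Cre -/-, and knockout cultures (KO) were CD11c-Cre +/-, so Cre was driven in cells that express CD11c, a marker gained as dendritic cells form. Non-adherent cells were taken on 4 successive days of culture, the earliest day 7 and the last day 10, and cultures were replated on days 4 and 7 per the labels. Adherent cells were discarded, over 90% of the cells were CD11c+ by flow cytometry per the labels, and the sex of each mouse is not labelled. Each of the 8 groups of 1 genotype and 1 day held 3 libraries, numbered by mouse as 63, 65 and 66 in WT and 64, 67 and 68 in KO.

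Library totals ran from 19952047 to 31049798 counts. Arpc4, the targeted gene, was lower in KO on each day without overlap, at 155 to 182 against 188 to 199 CPM (counts scaled to library size with edgeR's factors) on day 7 and 173 to 185 against 208 to 242 CPM on day 10. On day 8 it lay at 223 to 231 CPM in KO and 246 to 270 CPM in WT, and on day 9 at 199 to 204 CPM and 219 to 238 CPM. Dendritic cell markers (9 of 9 tested) summed to 2382 to 7889 CPM, with Itgax, the gene of CD11c, at 750.4 CPM or more in every library. Summed erythroid markers were at most 1.33 CPM and summed lymphoid markers at most 6.10 CPM. In each group, 1 library held the Y-linked transcript Ddx3y above 10 CPM and almost no Xist, the transcript of the silenced X chromosome. In WT it was mouse 63 on all days, whereas in KO it was mouse 64 on days 7 and 9, mouse 68 on day 8 and mouse 67 on day 10, which goes against a mouse number in KO standing for 1 animal on every day. The KO library with high Ddx3y was also the lowest of its 3 for most of the 50 genes on each day, so the counts and medians over the 50 genes that moved most without those libraries are also given without them, while levels, role counts and fold changes of single genes are from all libraries.

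Genes of this class are transcribed in a wave that peaks before division and are low in cells that have left the cycle. In resting cells the DREAM complex represses many of them, and in cycling cells MuvB with B-MYB (Mybl2) and then FOXM1 activates them. Both act through a promoter element called the CHR (cell cycle genes homology region), often with CCAAT boxes bound by NF-Y. In marrow cultures with GM-CSF, dividing progenitors supply the dendritic cells.

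Promoter sequences were found in RefSeq (GRCm38.p6) for 41 of the 50 genes, each from 250 bases before to 50 after the annotated start. The 6 shown were picked because they carry the elements named above, or lack one, in genes whose values follow. Each run covers 150 bases before to 30 after the start, on the gene's own strand, 5′ to 3′. Capitals mark TTTGAA or its complement TTCAAA (the CHR), TTCGAA (a CHR variant) and CCAAT or its complement ATTGG.
Cdk1 (chr10:69352883-69353062, minus strand): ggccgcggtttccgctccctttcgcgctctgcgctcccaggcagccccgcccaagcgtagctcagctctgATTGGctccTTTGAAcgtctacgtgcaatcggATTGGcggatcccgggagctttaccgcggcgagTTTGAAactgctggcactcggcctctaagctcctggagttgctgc
Cks1b (chr3:89418262-89418441, minus strand): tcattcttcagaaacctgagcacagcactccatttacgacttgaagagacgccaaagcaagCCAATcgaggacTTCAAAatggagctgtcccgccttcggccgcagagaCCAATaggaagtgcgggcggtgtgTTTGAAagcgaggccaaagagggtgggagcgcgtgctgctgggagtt
Cdc20 (chr4:118437314-118437493, minus strand): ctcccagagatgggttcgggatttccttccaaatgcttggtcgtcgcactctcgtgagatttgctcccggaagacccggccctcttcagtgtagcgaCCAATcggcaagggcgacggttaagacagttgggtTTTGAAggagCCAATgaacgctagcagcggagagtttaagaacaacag
Top2a (chr11:99024160-99024339, minus strand): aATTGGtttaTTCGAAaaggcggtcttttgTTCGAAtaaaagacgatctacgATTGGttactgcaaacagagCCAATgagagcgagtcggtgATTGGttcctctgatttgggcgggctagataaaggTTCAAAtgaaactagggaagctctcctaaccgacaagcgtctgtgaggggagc
Cenpa (chr5:30666736-30666915, plus strand): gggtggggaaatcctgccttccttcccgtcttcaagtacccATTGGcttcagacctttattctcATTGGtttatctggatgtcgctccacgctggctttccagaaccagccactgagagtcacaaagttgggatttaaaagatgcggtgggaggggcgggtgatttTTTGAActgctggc
Ccnb1 (chr13:100786457-100786636, minus strand): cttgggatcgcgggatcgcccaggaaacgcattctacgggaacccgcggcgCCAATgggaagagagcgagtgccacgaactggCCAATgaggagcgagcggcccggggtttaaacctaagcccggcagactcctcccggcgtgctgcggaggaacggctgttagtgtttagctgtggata

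A CHR lay within 50 bases of the start in 30 of the 41 genes (73.2%), against 5.72% of 27025 genes with a RefSeq promoter of the same length and 3.86% of the 10521 of those tested here. A gene was counted if any of its promoters held the match. Both strands were searched. A CCAAT box lay anywhere in the window in 33 of 41 (80.5%), against 41.1% of all genes with a promoter. Both elements, the CHR near the start, were found together in 26 (63.4%), against 2.39%. In the runs shown, Top2a held the most CCAAT boxes, and Ccnb1 held CCAAT boxes but neither TTTGAA nor TTCAAA. In WT the median log2 fold change from day 7 to day 10 was 2.60 for the 30 genes with a CHR near the start and 2.73 for the 11 without, and in KO it was 1.74 and 1.66. These are matches of letters, described without a test.

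Taken as a group, the 50 genes climbed in both genotypes between day 7 and day 10, mostly from day 8 to day 9. The mean log2 CPM of the 50 genes in WT mice 63, 65 and 66 was 3.14, 2.78 and 2.78 on day 7, then 3.92, 3.58 and 3.80 on day 8. It reached 5.21, 4.83 and 5.11 on day 9 and 5.50, 5.12 and 5.51 on day 10. The WT groups of days 7, 8 and 9 did not overlap, and the highest library of a WT day stood 1.26- to 1.31-fold above the lowest. In KO mice 64, 67 and 68 the same mean was 3.30, 4.27 and 3.53 on day 7 and 3.87, 4.63 and 3.02 on day 8. It reached 4.40, 5.47 and 5.20 by day 9 and 5.86, 4.60 and 5.50 by day 10. The highest library of a KO day stood 1.96- to 3.05-fold above the lowest, and KO libraries of neighbouring days overlapped. The genes took 0.0443% to 0.420% of a library's counts.

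**Figure D1:**
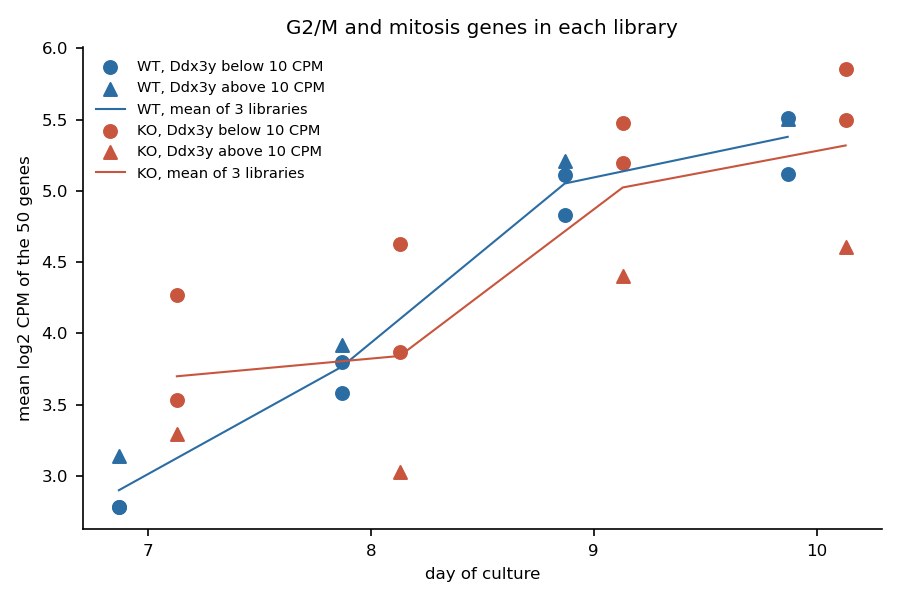
Mean log2 CPM (vertical axis) of the 50 genes in each of the 24 libraries by day of culture (horizontal axis); blue is WT, red is KO, lines join group means of 3 libraries, and triangles are libraries with Ddx3y above 10 CPM. WT libraries of a day lie close together and climb from 2.78 to 5.51, while on each day a KO triangle is the lowest KO point, at 3.30, 3.02, 4.40 and 4.60.

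In WT all 50 genes rose from day 7 to day 10, and 24, 31 and 0 passed the test at the 3 single steps. From day 7 to day 8, 23 of 50 rose and 1 fell at an adjusted p under 0.05 (edgeR quasi-likelihood test, Benjamini-Hochberg over 14535 genes), where 21.5% of all genes rose and 22% fell. The median log2 fold change was 0.90, and it ranged from -0.44 for Cenpa to 1.44 for Aurka. From day 8 to day 9, 31 of 50 rose, against 3.06% of all genes, with a median of 1.31 and a range from 0.50 for Smc4 to 1.81 for Cdca3. Of these genes, 13 rose at both steps, 10 at the former only and 18 at the latter only, and 9 passed the test at neither. The latter step was the larger one for 44 of the 50 genes, a comparison that was not tested. From day 9 to day 10, 0 of 50 passed the test, 0 had an unadjusted p under 0.05 and DESeq2 called 0. By edgeR 1.18% of all genes rose at that step and 17.7% had an unadjusted p under 0.05. In that last step the 2 groups did not overlap for 9 of the 50 genes, all higher on day 10, against 14% of all genes higher without overlap, and the median was 0.34. Over the whole span from day 7 to day 10, 50 of 50 rose, against 18.9% of all genes, with a median log2 fold change of 2.61 and a range from 0.61 for Cenpa to 3.07 for Kif23. The WT counts for single steps depended on which libraries were used. For day 8 against day 7 the count was 7, 6, 6 and 14 without day 7 mouse 65, day 7 mouse 66, day 8 mouse 63 and day 8 mouse 66, and 20 and 23 without day 7 mouse 63 and day 8 mouse 65. The share of all genes called in those 6 fits ran from 36.6% to 39.2%, higher and lower genes together. For day 9 against day 8 it was 7, 1 and 2 without day 8 mouse 63, 65 and 66, and 2, 18 and 2 without day 9 mouse 63, 65 and 66, where 0.977% to 3.48% of all genes were called. The count for day 10 against day 7 stayed at 50 when any 1 WT library of day 7 or day 10 was left out.

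In KO all 50 genes also rose from day 7 to day 10, while few passed the test at a single step. From day 7 to day 8, 0 of 50 rose and 1 fell, Cenpa, where 21.1% of all genes rose and 20.9% fell. The median was 0.26, and 0 of 50 genes were higher on day 8 without overlap, against 23% of all genes. DESeq2 called 2 genes at this step, 1 of them higher, where it called 42.4% of all genes, and edgeR gave 2 genes higher at an unadjusted p under 0.05, against 24.6% of all genes. From day 8 to day 9, 4 of 50 rose (Cenpa, Ttk, Anln and Cdca3), against 1.31% of all genes, with a median of 1.15 and a range from 0.44 for Smc4 to 1.51 for Kif2c. An unadjusted p under 0.05 was found for 48 of 50, all higher and all but Cks2 and Smc4, against 10.3% of all genes higher in that way. Only Cdca3, Cenpa and Kif2c were higher on day 9 without overlap, against 8.51% of all genes. From day 9 to day 10, 0 passed the edgeR test and 0 the DESeq2 test, 1 had an unadjusted p under 0.05 and 0 were higher without overlap. Among all genes 0.0344% rose at that step and 12% had an unadjusted p under 0.05, both by edgeR, and 5.63% were higher without overlap. From day 7 to day 10, 50 of 50 rose, against 19.7% of all genes, with a median of 1.72 and a range from 0.47 for Cenpa to 2.41 for Cdc25c. The groups of day 7 and day 10 did not overlap for 48 of the 50, the exceptions being Cks2 and Racgap1, against 22.4% of all genes higher without overlap.

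The KO step from day 8 to day 9 depended on which libraries were used. Without the 4 KO libraries with high Ddx3y, 43 of 50 rose, against 7.56% of all genes called, and without all 8 such libraries 35 rose, against 5.86%. With a term for high Ddx3y in each genotype 49 rose, against 8.26%, and DESeq2 on all libraries called 23, against 5.74%. Leaving out single libraries gave 45 without day 8 mouse 67, 36 without day 9 mouse 64, and 1 without each of day 8 mouse 64, day 8 mouse 68, day 9 mouse 67 and day 9 mouse 68. The share of all genes called in these 6 fits ran from 0.282% to 6.23%. For day 8 against day 7, 4 passed without day 7 mouse 67 and 8 without day 8 mouse 68, where 39% and 43.3% of all genes were called, and the median was -0.24 without day 8 mouse 67. For day 10 against day 9, 1 passed without day 10 mouse 67, where 3.24% of all genes were called. For day 10 against day 7, 50 of 50 passed without the 4 KO libraries with high Ddx3y, with a median of 1.78, against 36.3% of all genes called. With only the libraries of days 8 and 9 in the fit 0 genes passed, so the calls of Cenpa, Ttk, Anln and Cdca3 were lost there, with adjusted p of 0.176, 0.367, 0.37 and 0.345. The alternatives with Ddx3y were chosen after seeing the data.

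**Figure D2:**
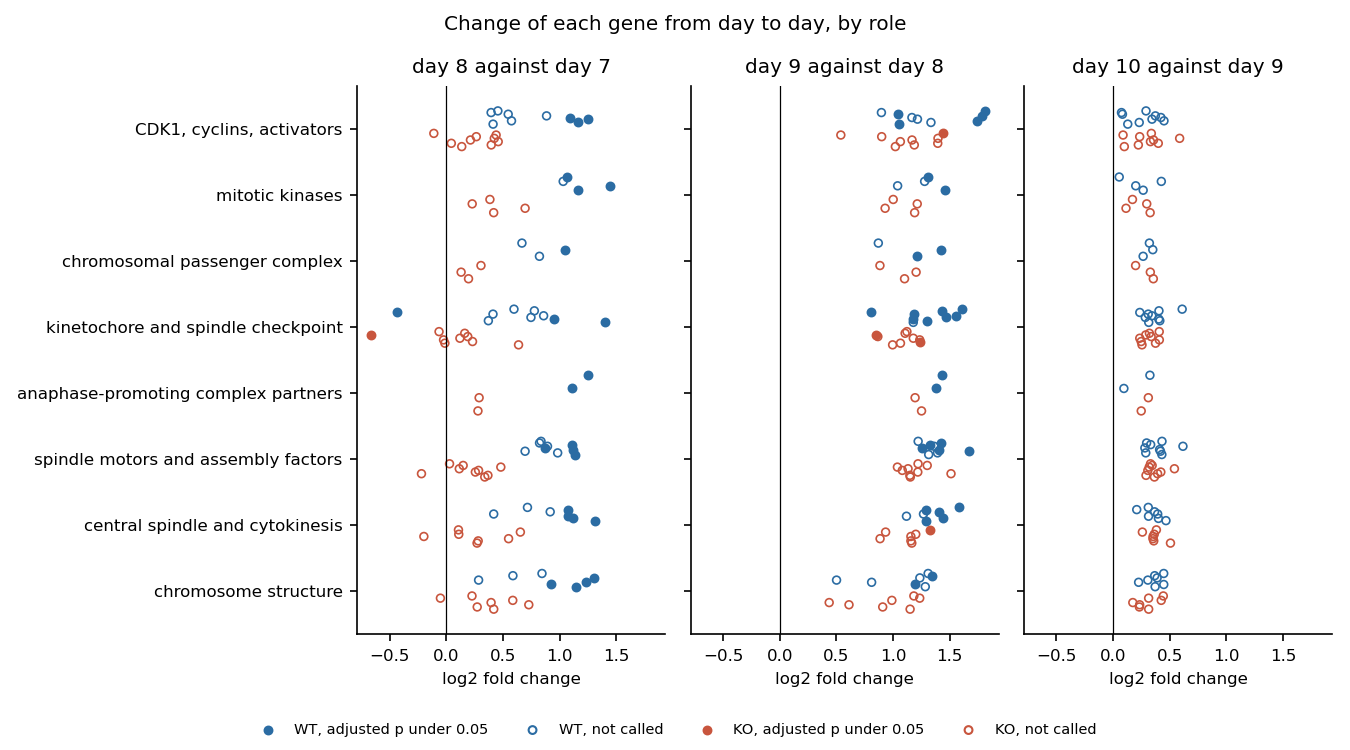
Log2 fold change (horizontal axis) of each of the 50 genes for day 8 against 7, day 9 against 8 and day 10 against 9, in rows by role; blue is WT, red is KO, and filled points passed an adjusted p under 0.05. Filled blue points number 24 in the first panel (Cenpa alone to the left of 0), 31 in the second and 0 in the third, and filled red points number 1, 4 and 0.

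The 9 genes that trigger mitosis comprise Cdk1, the kinase that drives entry, its cyclins (Ccnb1, Ccnb2, Ccna2), its activating phosphatase Cdc25c, the CDK-binding subunits Cks1b and Cks2, and the ubiquitin ligase adaptors Ccnf and Cdca3. In WT 3 of 9 rose from day 7 to 8 and 5 of 9 from day 8 to 9, where 21.5% and 3.06% of all genes rose, shares that hold for the WT role counts at these steps throughout. All 9 rose over the whole span in each genotype, with a median of 2.68 in WT and 1.74 in KO. Cks1b (ENSMUSG00000028044.6, GRCm38 chromosome 3, 89415472 to 89418383, minus strand) had the highest mean TPM (the deposited level scaled by gene length) of the role, 59.0. Cks1b in WT mice 63, 65 and 66 stood at 10.1, 8.24 and 9.50 CPM on day 7, 15.97, 10.9 and 13.8 on day 8, 32.01, 24.4 and 27.5 on day 9, then 29.6, 23.5 and 35.8 on day 10. In KO mice 64, 67 and 68 it stood at 9.74, 14.6 and 11.4 CPM on day 7, 14.1, 19.3 and 9.30 on day 8, 18.01, 32.4 and 29.3 on day 9, then 41.5, 20.9 and 31.5 on day 10. WT days 8 and 9 did not overlap, and on days 8, 9 and 10 the lowest KO value lay below every WT value. Cks1b rose from day 7 to day 10 by a log2 fold change of 1.67 (SE 0.27, adjusted p = 8.69e-05) in WT and 1.40 (SE 0.27, adjusted p = 0.000467) in KO.

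Cdk1 and Ccnb1, the kinase and cyclin B1 whose complex starts mitosis, are the genes of the first and last promoters shown. In WT mice 63, 65 and 66 Cdk1 measured 16.7, 13.3 and 15.7 CPM on day 7, 21.8, 17.4 and 21.6 on day 8, 46.3, 37.8 and 41.8 on day 9, then 45.6, 39.98 and 52.1 on day 10. KO mice 64, 67 and 68 gave 15.1, 25.2 and 17.7 CPM on day 7, 18.9, 30.7 and 13.7 on day 8, 27.02, 54.2 and 47.6 on day 9, then 59.2, 29.8 and 49.01 on day 10. In WT its days 7, 8 and 9 did not overlap, and in KO those days did. Cdk1 rose from day 7 to day 10 by 1.59 (SE 0.28, adjusted p = 0.000202) in WT and 1.25 (SE 0.28, adjusted p = 0.00156) in KO. WT levels of Ccnb1 in mice 63, 65 and 66 were 7.27, 5.43 and 6.38 CPM on day 7, 15.02, 13.1 and 14.5 on day 8, 39.1, 30.6 and 37.9 on day 9, then 47.4, 35.4 and 43.4 on day 10. Its KO levels in mice 64, 67 and 68 were 7.03, 19.5 and 10.7 CPM on day 7, 14.6, 26.6 and 7.39 on day 8, 22.1, 48.04 and 40.98 on day 9, then 59.8, 23.6 and 46.2 on day 10. Its WT days also separated up to day 9, and in KO neighbouring days overlapped. Ccnb1 rose over that span by 2.72 (SE 0.42, adjusted p = 4.52e-05) in WT and 1.80 (SE 0.40, adjusted p = 0.00137) in KO.

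At the other end of the role's levels, Cdc25c, the phosphatase that removes the block on CDK1, had the lowest mean TPM of the 50 genes, 2.75. Cdc25c in WT mice 63, 65 and 66 stood at 1.08, 0.75 and 0.86 CPM on day 7, 2.27, 1.15 and 1.55 on day 8, 6.51, 5.35 and 5.41 on day 9, then 8.26, 6.62 and 7.47 on day 10. In KO mice 64, 67 and 68 it stood at 1.36, 2.06 and 1.20 CPM on day 7, 1.66, 3.35 and 1.10 on day 8, 2.47, 7.77 and 6.01 on day 9, then 11, 4.27 and 9.17 on day 10. The WT values of day 9 all exceeded those of day 8, while in KO the lowest day 9 value fell inside the range of day 8. Its log2 fold change from day 7 to day 10 was 3.04 (SE 0.45, adjusted p = 2.8e-05) in WT and 2.41 (SE 0.42, adjusted p = 0.000176) in KO, the largest among the 50 in KO. Cdca3, a trigger of mitotic entry, rose by 1.81 (SE 0.38, adjusted p = 0.0106) from day 8 to day 9 in WT and by 1.44 (SE 0.37, adjusted p = 0.0449) in KO. The WT call of Cdca3 was lost without day 8 mouse 65 (adjusted p = 0.0724). The KO call was lost on log2(TPM + 1), with only the libraries compared, and without day 8 mouse 64 or 68 or day 9 mouse 67 or 68 (adjusted p of 0.0708 to 0.345).

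Among the mitotic kinases Plk1, Aurka, Nek2 and Pbk, 3 of 4 rose from day 7 to 8 in WT and 0 of 4 in KO, against 21.5% and 21.1% of all genes, and all 4 rose over the whole span in each genotype (medians 2.71 and 1.74). Plk1 (ENSMUSG00000030867.7, chromosome 7, 122159439 to 122169873, plus strand) encodes a kinase for centrosome maturation, chromosome segregation and cytokinesis and had a mean TPM of 41.5. In WT mice 63, 65 and 66 Plk1 measured 7.11, 5.52 and 6.38 CPM on day 7, 17.2, 11.4 and 14 on day 8, 47.2, 30.2 and 39.4 on day 9, then 46.8, 38.5 and 55.1 on day 10. KO mice 64, 67 and 68 gave 8.30, 19.3 and 10.5 CPM on day 7, 13.02, 27.9 and 9.72 on day 8, 21.9, 51.6 and 42.3 on day 9, then 64.2, 26.8 and 54.4 on day 10. Day by day the WT values separated up to day 9, and in KO mouse 67 was highest on days 7, 8 and 9. In WT Plk1 rose by 1.16 (SE 0.41, adjusted p = 0.0265) from day 7 to 8 and by 1.45 (SE 0.38, adjusted p = 0.0323) from day 8 to 9. The former call was lost without day 7 mouse 65, day 7 mouse 66 or day 8 mouse 63 (adjusted p of 0.0783, 0.0615 and 0.0942), and the latter on log2(TPM + 1) and without day 8 mouse 63, 65 or 66 or day 9 mouse 63 or 66 (adjusted p of 0.0601 to 0.14). Over the whole span it rose 7.37-fold in WT (adjusted p = 2.16e-05) and 3.82-fold in KO (adjusted p = 0.00065). Aurka, the kinase of centrosomes and spindle poles, had the largest change of the 50 from day 7 to 8 in WT, 1.44 (SE 0.33, adjusted p = 0.00136), where its KO change was 0.69 (SE 0.31, adjusted p = 0.081).

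The chromosomal passenger complex, which corrects faulty chromosome attachments, was represented by its kinase Aurkb, survivin (Birc5) and borealin (Cdca8). All 3 rose over the whole span in each genotype, with medians of 2.30 in WT and 1.65 in KO, and Birc5 alone rose from day 7 to 8, in WT. That call was lost without day 7 mouse 65, day 7 mouse 66, day 8 mouse 63 or day 8 mouse 66, with adjusted p for Birc5 of 0.0708 to 0.114. WT levels of Aurkb in mice 63, 65 and 66 were 10.2, 6.65 and 7.14 CPM on day 7, 15.1, 12.8 and 14.6 on day 8, 35.6, 29.1 and 33.7 on day 9, then 40.2, 33.9 and 44.1 on day 10. Its KO levels in mice 64, 67 and 68 were 8.78, 19.5 and 11.4 CPM on day 7, 14.7, 22.3 and 8.28 on day 8, 20, 42.98 and 34.4 on day 9, then 56.9, 21.8 and 45.8 on day 10. Aurkb separated between WT days 8 and 9, and its KO values of day 10 ran from below all WT values to above them. It rose by 2.30 (SE 0.37, adjusted p = 6.98e-05) from day 7 to 10 in WT and by 1.65 (SE 0.35, adjusted p = 0.00115) in KO.

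Of the 9 kinetochore and spindle checkpoint genes, 2 rose and 1 fell from day 7 to 8 in WT, near the 21.5% of all genes that rose and below the 22% that fell. From day 8 to 9, 8 of the 9 rose, against 3.06% of all genes. In KO 0 rose and 1 fell at the former step, against 21.1% and 20.9% of all genes, and 2 rose at the latter, against 1.31%, and all 9 rose over the whole span in each genotype. Bub1b encodes BUBR1, which holds the cell in mitosis until chromosomes are attached. Bub1b in WT mice 63, 65 and 66 stood at 17.7, 17.04 and 16.8 CPM on day 7, 25.6, 19.3 and 21.7 on day 8, 64.1, 47.04 and 53.3 on day 9, then 78.5, 62.3 and 78.1 on day 10. In KO mice 64, 67 and 68 it stood at 17.04, 36.95 and 24 CPM on day 7, 25.1, 36.4 and 15.5 on day 8, 33.3, 69.6 and 58.4 on day 9, then 90.1, 41.4 and 77.7 on day 10. The WT groups of days 7, 8 and 9 were separate, and the KO range of day 8 enclosed the whole WT range of that day. Bub1b rose by 2.08 (SE 0.32, adjusted p = 4.85e-05) in WT and 1.42 (SE 0.31, adjusted p = 0.00141) in KO from day 7 to 10. Cenpf, a large kinetochore protein, had the largest KO-minus-WT value on day 7, 1.33 (SE 0.46), with an adjusted p of 0.154.

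Cenpa went its own way. It encodes the histone H3 variant that marks centromeres, and it is the 1 gene of the 50 that fell from day 7 to 8 in both genotypes. In WT mice 63, 65 and 66 Cenpa measured 44.96, 47.7 and 51.2 CPM on day 7, 35.5, 36.3 and 34.3 on day 8, 63.97, 59.2 and 62.7 on day 9, then 76.4, 71.5 and 70.95 on day 10. KO mice 64, 67 and 68 gave 49.5, 46.2 and 46.1 CPM on day 7, 28.9, 32.04 and 28.6 on day 8, 42.3, 61.9 and 57.04 on day 9, then 76.2, 50.1 and 70.5 on day 10. Every day 8 value lay below every day 7 value in each genotype, and every day 9 value lay above every day 8 value. At the first step it fell by 0.44 on the log2 scale (SE 0.13, adjusted p = 0.00789) in WT and by 0.66 (SE 0.13, adjusted p = 0.000282) in KO. From day 8 to 9 it rose by 0.81 (SE 0.13, adjusted p = 0.00137) and 0.85 (SE 0.13, adjusted p = 0.00155). On log2(TPM + 1) the WT fall was 0.20 and did not pass (adjusted p = 0.345). On day 7 KO minus WT was -0.02 (SE 0.13), the only value of the 50 below 0, and its sign changed when WT mouse 66, KO mouse 67 or KO mouse 68 was left out.

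Both partners of the anaphase-promoting complex, the ubiquitin ligase that ends mitosis, rose at both WT steps up to day 9. Cdc20 is the activator that brings it substrates in mitosis, and Ube2c its ubiquitin-conjugating enzyme. WT levels of Cdc20 in mice 63, 65 and 66 were 5.86, 5.38 and 5.73 CPM on day 7, 12.9, 10.8 and 13 on day 8, 34.95, 25.9 and 34.6 on day 9, then 33.5, 28.4 and 40.02 on day 10. Its KO levels in mice 64, 67 and 68 were 5.83, 15.6 and 9.86 CPM on day 7, 11.03, 20.9 and 5.70 on day 8, 17.3, 39.9 and 32.97 on day 9, then 46.6, 21.5 and 39.04 on day 10. Cdc20 stayed below 6 CPM in all WT libraries of day 7, where 2 of 3 KO libraries were above every WT value. It rose 6.00-fold from day 7 to 10 in WT (adjusted p = 5.91e-05) and 3.43-fold in KO (adjusted p = 0.0013). Its exons share 53 bases with Elovl1 on the opposite strand, whose counts were 698% of those of Cdc20. Since the strand setting of the counter is not given in the sources used here, reads of that stretch cannot be told apart. Opposite-strand partners also held over 10% of the counts of Kif4 (Pdzd11, 140%), Kif20a (Cdc23, 98.5%), Ncapg (Lcorl, 72.2%), Ccna2 (Exosc9, 54.0%), Cdca8 (9930104L06Rik, 46.1%), Nusap1 (Oip5, 14.5%) and Prc1 (Rccd1, 13.2%).

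The 9 spindle motors and assembly factors, such as the bipolar motor Kif11, the depolymerase Kif2c and the microtubule bundler Nusap1, rose over the whole span in each genotype (medians 2.76 and 1.79). In WT 4 of 9 rose from day 7 to 8 and 5 of 9 from day 8 to 9. In KO 0 of 9 rose at either step, against 21.1% of all genes at the former and 1.31% at the latter. Tpx2 (ENSMUSG00000027469.16, chromosome 2, 152847964 to 152895321, plus strand) activates Aurora A and nucleates spindle microtubules. Tpx2 in WT mice 63, 65 and 66 stood at 16.3, 13.6 and 13.01 CPM on day 7, 28.5, 22.6 and 27.2 on day 8, 67.4, 55.9 and 63.1 on day 9, then 81.8, 60.6 and 83.8 on day 10. In KO mice 64, 67 and 68 it stood at 16.4, 34.5 and 20.3 CPM on day 7, 26.1, 43.1 and 17.03 on day 8, 39.01, 78.4 and 65.8 on day 9, then 103, 44.9 and 78.7 on day 10. All KO values of day 7 lay above all WT values, and on days 8, 9 and 10 the KO range enclosed the WT range. Tpx2 rose by 2.40 (SE 0.34, adjusted p = 1.91e-05) in WT and 1.67 (SE 0.33, adjusted p = 0.000512) in KO from day 7 to 10.

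Central spindle and cytokinesis genes, which bundle the midzone and drive the cleavage furrow, numbered 7, and all 7 rose from day 7 to 10 in each genotype (medians 2.61 and 1.80). In WT 4 of 7 rose from day 7 to 8 and 5 of 7 from day 8 to 9. In KO 0 of 7 rose at the former step, against 21.1% of all genes. At the latter step Anln, the anillin scaffold of the furrow, alone rose in KO, against 1.31% of all genes. The KO call of Anln was lost on log2(TPM + 1), with only the libraries compared, and without day 8 mouse 64 or 68 or day 9 mouse 67 or 68 (adjusted p of 0.0789 to 0.37). Kif20a encodes the motor that carries the passenger complex to the midzone. In WT mice 63, 65 and 66 Kif20a measured 9.59, 8.29 and 6.85 CPM on day 7, 19.99, 15.2 and 18.6 on day 8, 56.5, 40.5 and 48.9 on day 9, then 69.9, 54.5 and 68.2 on day 10. KO mice 64, 67 and 68 gave 14.2, 26.3 and 15.3 CPM on day 7, 19.2, 36.4 and 11.8 on day 8, 31.1, 66.3 and 53.7 on day 9, then 84.6, 40.1 and 68.97 on day 10. KO values of day 7 were all above the WT values, whereas on day 8 the KO range enclosed the WT range. It rose 7.78-fold in WT (adjusted p = 5.18e-06) and 3.47-fold in KO (adjusted p = 0.000433) from day 7 to 10. Kif23, the centralspindlin motor, had the largest WT change of the 50 over that span, 3.07 (SE 0.39, adjusted p = 6.03e-06), and its KO change was 1.94 (SE 0.36, adjusted p = 0.000337).

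Chromosome structure genes included Top2a, which untangles DNA, Mki67, which coats mitotic chromosomes, and the condensin subunits Smc2, Smc4, Ncapg and Ncapd2. In WT 4 of 7 rose from day 7 to 8 and 2 of 7 from day 8 to 9. In KO 0 of 7 rose at either step, against 21.1% of all genes at the former and 1.31% at the latter. All 7 rose over the whole span in each genotype (medians 2.57 and 1.57). Top2a (ENSMUSG00000020914.17, chromosome 11, 98992943 to 99024189, minus strand) had the highest mean TPM of all 50 genes, 63.4, followed by Mki67 at 59.1. WT levels of Top2a in mice 63, 65 and 66 were 48.6, 38.95 and 39.6 CPM on day 7, 105, 81.4 and 95.2 on day 8, 250.2, 194 and 241 on day 9, then 315, 251 and 320.2 on day 10. Its KO levels in mice 64, 67 and 68 were 55.2, 128 and 62.2 CPM on day 7, 103, 177 and 47.2 on day 8, 147, 320.5 and 259.6 on day 9, then 418, 169 and 317 on day 10. Top2a separated at every WT step, day 10 included, and in KO the lowest library of day 9 fell below the highest of day 8. It rose 6.97-fold in WT (adjusted p = 2.64e-05) and 3.69-fold in KO (adjusted p = 0.000919) from day 7 to 10.

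Mki67 encodes the proliferation marker Ki-67. Mki67 in WT mice 63, 65 and 66 stood at 59.7, 47.1 and 47.6 CPM on day 7, 105, 88.8 and 98.98 on day 8, 249.7, 184 and 238 on day 9, then 342, 263 and 311 on day 10. In KO mice 64, 67 and 68 it stood at 85.8, 159.5 and 84 CPM on day 7, 130.1, 199.9 and 67.1 on day 8, 169, 322 and 254 on day 9, then 351, 198 and 327 on day 10. Its WT values were separate at each step, and every KO value of day 7 exceeded every WT value. It rose 5.93-fold in WT (adjusted p = 7.1e-06) and 2.66-fold in KO (adjusted p = 0.00157). Smc4, the core ATPase of condensin, changed least after Cenpa. In WT mice 63, 65 and 66 Smc4 measured 67.2, 59.5 and 61.3 CPM on day 7, 74.9, 75.8 and 78.2 on day 8, 107, 99.3 and 118 on day 9, then 148, 117 and 135 on day 10. KO mice 64, 67 and 68 gave 58.1, 71.8 and 59.6 CPM on day 7, 88.4, 109 and 51.5 on day 8, 88.5, 130.0 and 118 on day 9, then 171, 82.2 and 126 on day 10. Smc4 stayed within 51.5 to 171 CPM over all 24 libraries. Smc4 rose over the whole span by 1.09 (SE 0.23, adjusted p = 0.000774) in WT and 1.00 (SE 0.22, adjusted p = 0.00161) in KO, and 0 single steps passed the test for it.

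**Figure D3:**
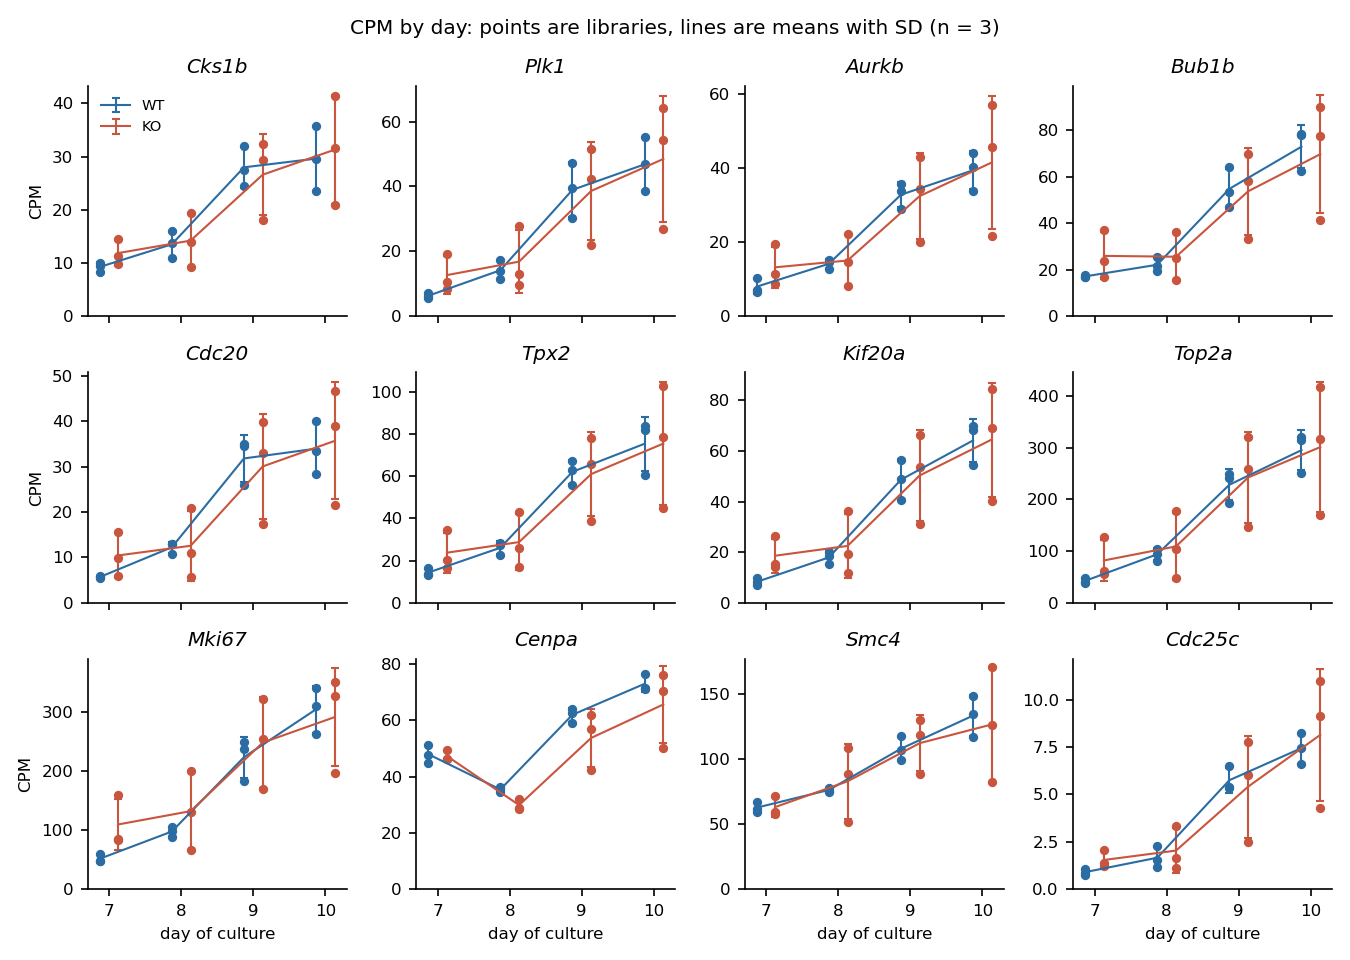
CPM (vertical axes, each from 0) by day of culture for 12 genes; points are libraries, lines join means, bars are SD (n = 3), blue is WT and red is KO. Top2a climbs from 39.0 to 320.2 CPM in WT, Cenpa dips on day 8 in both genotypes, and the red points spread more widely than the blue ones from day 8 on.

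On day 7, 49 of 50 genes had a higher fitted level in KO, but 0 passed the test with all libraries. The median KO-minus-WT log2 fold change on day 7 was 0.91, with a range from -0.02 for Cenpa to 1.33 for Cenpf. An edgeR adjusted p under 0.05 was reached by 0 of 50 (smallest 0.0913, for Mki67), where 1.45% of all genes were called and 0.832% were called higher. An unadjusted p under 0.05 was found for 35 of 50, all higher in KO, against 8.02% of all genes higher in that way. For 35 genes all 3 KO libraries exceeded all 3 WT libraries, against 11.9% of all genes. KO mouse 67 was the highest KO library of day 7 for 49 of the 50 genes. Its mean log2 CPM of the 50 genes was 4.27, against 3.30 and 3.53 in KO mice 64 and 68 and 2.78 to 3.14 in WT. DESeq2 called 2 of 50, Kif20a and Mki67, against 3.52% of all genes. Among these, Mki67 stood at 85.8, 159.5 and 84.0 CPM in KO and 59.7, 47.1 and 47.6 CPM in WT on day 7, a log2 fold change of 1.09 (SE 0.32).

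The count on day 7 differed between fits with and without the KO libraries with high Ddx3y. Of these 4 libraries 1 is of day 7, mouse 64, and leaving it out alone gave 0 calls; the others enter through the spread that all groups share. Each was the lowest of its 3 for most of the 50 genes, so leaving them out raises the KO level by construction, and the median SD of the 50 genes in KO was smaller without them on all 4 days. Without the 4 of them 41 of 50 genes were called higher in KO, with a median of 1.13, against 5.76% of all genes called. Without all 8 libraries with high Ddx3y, 25 of 50 were called, with a median of 1.24, against 2.22%, and with a term for high Ddx3y in each genotype 37 of 50 were called, with a median of 0.87, against 4.71%. Leaving out any 1 library of day 7 gave 0 calls, with medians from 0.59 to 1.13. Libraries of other days were not left out singly for this comparison. On day 7, KO mice 67 and 68 also lay above every WT library for each summed marker list but that of macrophages. Granulocyte-monocyte progenitor markers (Mpo, Elane, Kit and others, 9 of 9 tested) summed to 130 to 420 CPM in KO and 161 to 224 CPM in WT. Mast cell and basophil markers (7 of 7) summed to 81.7 to 243 CPM in KO and 76.2 to 96.5 CPM in WT, and neutrophil markers (9 of 9) to 3723 to 7024 and 3013 to 4600.0 CPM. The highest KO sum of progenitor, mast cell and neutrophil markers was in each case that of mouse 67. Dendritic cell markers summed to 2664 to 3274 CPM in KO and 2382 to 2977 CPM in WT, and macrophage markers to 4939 to 7819 and 5544 to 6389 CPM. Erythroid and lymphoid markers summed to at most 1.33 and 5.87 CPM in KO and 0.923 and 4.54 CPM in WT on that day. Their part in the result was not tested.

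On days 8 to 10 no gene passed the test between genotypes. The median KO-minus-WT value was 0.22 on day 8 (range -0.25 for Cenpa to 0.67 for Cenpf), 0.03 on day 9 and 0.02 on day 10. On each of these days 0 of 50 passed the edgeR test, 0 the DESeq2 test and 0 had an unadjusted p under 0.05. By edgeR 0.00688% of all genes were called on day 8 and 0.00688% on day 9, then 0.0138% on day 10, and 5.91%, 8.15% and 7.3% had an unadjusted p under 0.05. These medians moved with the libraries used, with 0 calls in each case. Without the 4 KO libraries with high Ddx3y they were 0.56, 0.29 and 0.30 on days 8, 9 and 10, and without all 8 such libraries 0.64, 0.38 and 0.38. With single libraries left out they ran from -0.27 to 0.55, from -0.21 to 0.28 and from -0.25 to 0.30, lowest without KO mouse 67, 67 and 64 and highest without KO mouse 68, 64 and 67.

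The difference between genotypes in the change over time was tested as an interaction. Over the whole span all 50 genes had the smaller change in KO, with a median difference of -0.90 and a range from -1.35 for Cenpf to -0.09 for Smc4, whose sign changed without the KO libraries with high Ddx3y. Each such value is the KO-minus-WT value of day 10 less that of day 7 (medians 0.02 and 0.91). It therefore rests on the same libraries and is not a separate result. An adjusted p under 0.05 was reached by 0 of 50, where 0.0619% of all genes passed, and an unadjusted one by 8 of 50, against 6.31% of all genes. These 8 were Mki67 (-1.16, SE 0.44), Kif20a (-1.16, SE 0.49), Aurka, Birc5, Nuf2, Cenpf, Ube2c and Kif23, with adjusted p of 0.663 and above. For the single steps the median differences were -0.67, -0.19 and -0.01 from day 7 to 8, 8 to 9 and 9 to 10, and 0 genes had an adjusted or an unadjusted p under 0.05. Among all genes 0.0275%, 0% and 0% passed the adjusted edgeR test at these steps, and 4.71%, 1.18% and 1.22% the unadjusted one. DESeq2 called 0 of 50 in each of the 4 interactions. With single libraries left out these step medians ran from -1.19 to -0.29, from -0.52 to 0.30 and from -0.29 to 0.27. Over the alternatives the day 7 to 10 median lay between -0.95 and -0.71, and between -1.19 and -0.51 when libraries were left out singly.

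**Figure D4:**
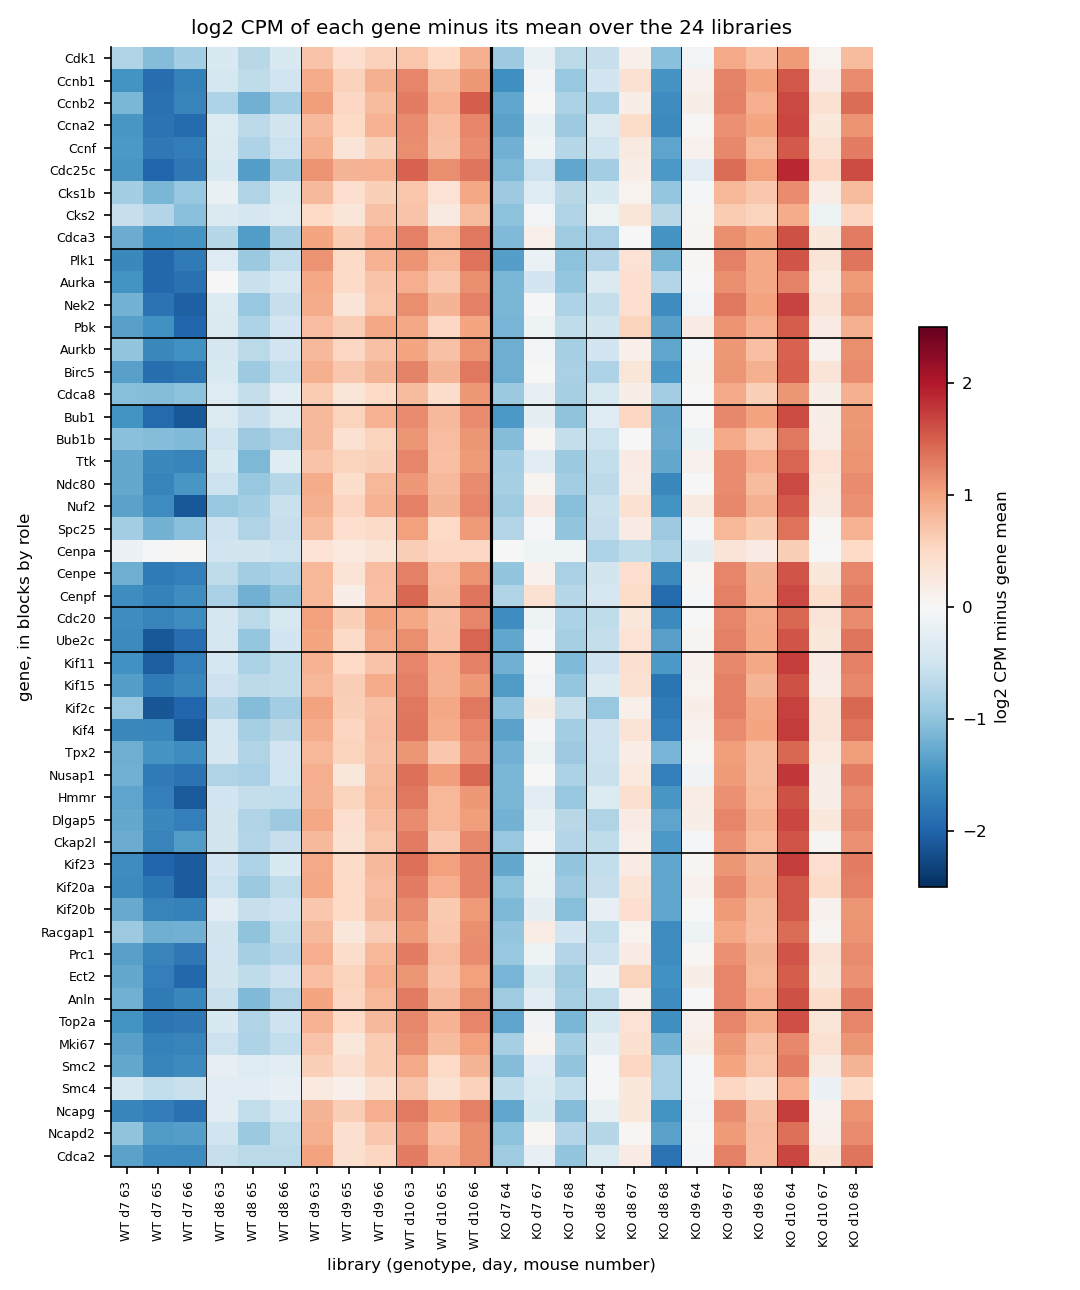
Log2 CPM of each of the 50 genes (rows, in blocks by role) minus its mean over the 24 libraries (columns, by genotype, day and mouse number); red is above and blue below the gene's mean. Columns are nearly uniform from top to bottom: WT goes from blue on day 7 to red on days 9 and 10, and the KO columns of day 8 mouse 68 and day 10 mouse 67 are the lowest of their days for 50 of 50 genes.

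The 50 genes moved together within a library, and in KO they spread far more between libraries than most genes. The median SD of log2 CPM over the 3 libraries was 0.220, 0.184, 0.201 and 0.232 in WT on days 7 to 10 and 0.548, 0.843, 0.567 and 0.669 in KO. Over all 14535 genes the median SD was between 0.108 and 0.152 in WT and between 0.143 and 0.192 in KO. The SD was larger in KO for 48, 50, 50 and 50 of the 50 genes on the 4 days, against 62.7%, 68%, 58.3% and 59.8% of all genes. Pooled over days the median SD was 0.224 in WT and 0.673 in KO for the 50 genes, and 0.143 and 0.196 for all genes. Without the library with high Ddx3y in each group, 2 libraries a group remain, and the median SD of the 50 genes was 0.536, 0.553, 0.203 and 0.264 in KO and 0.0893, 0.154, 0.207 and 0.266 in WT on days 7 to 10. The wider KO spread was thus seen on days 7 and 8 without those libraries and not on days 9 and 10. Since the 50 genes share their libraries, these counts describe 3 libraries a group and carry no test.

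**Figure D5:**
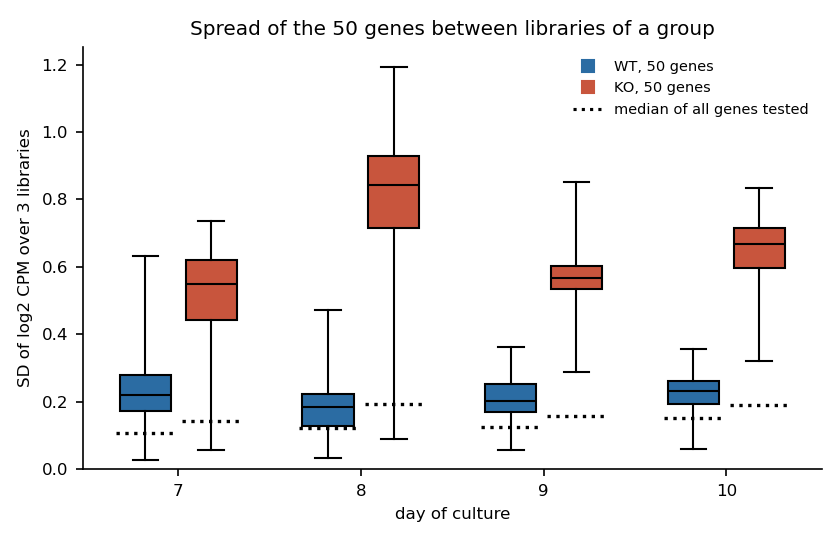
SD of log2 CPM over the 3 libraries of a group (vertical axis) by day of culture; boxes show the quartiles and median of the 50 genes, whiskers their full range, blue is WT and red is KO, and dotted lines are the median over all 14535 genes tested. The KO boxes sit at medians of 0.548 to 0.843 and the WT boxes at 0.184 to 0.232.

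Summed over the 50 genes, that library held 688, 572, 1416 and 1620.0 CPM on days 7 to 10, and the other KO libraries held 784 to 1304, 1025 to 1666, 2394 to 2900.0 and 2953 to 3724 CPM. It was the lowest of its 3 for 42, 50, 50 and 50 genes on the 4 days. In WT the library with high Ddx3y, mouse 63, was the highest of its 3 for 47, 41, 40 and 25 genes. With a term for it, the fitted level of the 50 genes in KO libraries with high Ddx3y was lower by a median of 2.04-fold, with 50 of 50 below 0, and in WT the median of that term was 0.24 with 0 of 50 below 0. In KO the same library was also the lowest of its 3 for summed dendritic cell, granulocyte-monocyte progenitor and mast cell markers on all 4 days, and the highest for macrophage markers on days 8, 9 and 10. Progenitor markers summed to 130, 158, 251 and 154 CPM in that KO library, with maxima of 420, 365, 510 and 405 CPM among the KO libraries of those days. In WT mouse 63 was likewise the lowest of its 3 for dendritic cell markers (2382, 2939, 4343 and 5203 CPM) and mast cell markers (76.2, 93.9, 99.0 and 55.5 CPM) on all 4 days, while it was the highest for most of the 50 genes on days 7, 8 and 9. The part of these markers in the spread was not tested.

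Marker lists of cell types were summed over the same days. Dendritic cell markers summed to 2382 to 2977 CPM in WT on day 7 and 5203 to 7020.0 CPM on day 10, and in KO to 2664 to 3274 and 4701 to 7889 CPM, without overlap between the days in either genotype. Macrophage markers (9 of 9 tested, Csf1r and Apoe among them) summed to 5544 to 6389 CPM in WT on day 7 and 2308 to 2390.0 CPM on day 10, and in KO to 4939 to 7819 and 2252 to 2974 CPM. Neutrophil markers (9 of 9) summed to 3013 to 4600.0 and 5263 to 7040.0 CPM in WT on days 7 and 10, without overlap, and to 3723 to 7024 and 4667 to 5926 CPM in KO, where the days overlapped. Progenitor markers summed to 161 to 224 CPM in WT on day 7 and peaked at 377 to 441 CPM on day 9. In bulk RNA a larger share of dividing cells and more of these transcripts per cell cannot be told apart, and the part of these cell types in the rise was not tested.

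Other genes of division were counted in lists that hold none of the 50. Of 36 other kinetochore, spindle and cytokinesis genes, 36 rose from day 7 to 10 in WT and 36 in KO, against 18.9% and 19.7% of all genes, with medians of 2.32 and 1.61. At the first step 10 of them rose in WT and 3 in KO, where 1 also fell, against 21.5% and 21.1% of all genes that rose and 20.9% that fell in KO. From day 8 to 9, 19 rose in WT and 4 in KO, against 3.06% and 1.31% of all genes. Gtse1, which tunes p53 and microtubules in G2, rose by 2.35 (SE 0.17, adjusted p = 6.99e-09) in WT and 1.93 (SE 0.16, adjusted p = 5.46e-08) in KO from day 7 to 10. It was the 1 gene of the list called higher in KO on day 7, by 0.67 (SE 0.17, adjusted p = 0.0491), and that call was lost without any 1 of 5 of the 6 libraries, all but KO mouse 64 (adjusted p of 0.072 to 0.317). Of 12 other condensin, cohesin and separase genes, 9 rose in WT and 8 in KO over that span, against the same 18.9% and 19.7%, led in WT by Espl1, the separase that cuts cohesin, at 2.95 (SE 0.43, adjusted p = 2.77e-05), and its KO change was 1.81 (SE 0.40, adjusted p = 0.00155).

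Of 16 genes listed as core subunits of the anaphase-promoting complex, 5 rose in WT and 6 in KO from day 7 to 10, where 18.9% and 19.7% of all genes rose, and the medians were 0.11 and 0.05. The largest change belonged to Fbxo5, which encodes the inhibitor EMI1 and not a subunit, at 1.72 (SE 0.33, adjusted p = 0.000353) in WT and 1.38 (SE 0.32, adjusted p = 0.00208) in KO.

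Inhibitors of mitotic entry were mixed. Of 10, 6 rose and 1 fell in WT and 5 rose and 1 fell in KO from day 7 to 10, where 18.9% of all genes rose and 18.1% fell in WT, and 19.7% and 17.1% in KO. Chek1, the checkpoint kinase of replicating cells, rose by 2.42 (SE 0.33, adjusted p = 1.27e-05) in WT, and Wee1, which holds CDK1 inactive, by 0.89 (SE 0.12, adjusted p = 9.31e-06). Gadd45a, a stress-induced inhibitor of CDK1, fell by 1.17 (SE 0.27, adjusted p = 0.00179) in WT and by 1.58 (SE 0.27, adjusted p = 0.000142) in KO. Gadd45b was the 1 gene of the list called in KO against WT on day 7, higher by 0.69 (SE 0.17, adjusted p = 0.0455), and that call too was lost without any 1 of 5 of the 6 libraries, all but KO mouse 64 (adjusted p of 0.0757 to 0.289 for Gadd45b).

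Transcription regulators of these genes rose in part. Of 21 listed, 15 rose and 1 fell in WT and 14 rose in KO from day 7 to 10, where 18.9% of all genes rose and 18.1% fell in WT and 19.7% rose in KO. The medians were 0.47 and 0.37, and 0 differed between KO and WT on any day by edgeR at an adjusted p under 0.05. Mybl2, the B-MYB partner of MuvB, rose by 2.63 (SE 0.34, adjusted p = 8.97e-06) in WT and 2.08 (SE 0.33, adjusted p = 6.65e-05) in KO. Foxm1 rose by 2.52 (SE 0.40, adjusted p = 5.78e-05) in WT, and E2f7, a late repressor of E2F targets, by 3.05 (SE 0.49, adjusted p = 6.46e-05). The lists were chosen with earlier results of these data known and are described by count and median.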

How the data were processed

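The deposited gene table holds raw counts and TPM of 24 libraries, made by the authors. FastQC 0.11.9, STAR 2.6.1, DESeq2 1.22.2 and the mouse build mm10 are named in the submitters' processing notes. The deposited counts are whole numbers per gene, and the deposited TPM values are scaled by gene length and depth and were used to compare levels between genes. The counter and its strand setting are not given in the sources used here, and the labels name 2 library kits without saying which library used which. The 50 members, their roles and the other gene lists were chosen with earlier results of these data known.

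Counts were fitted with edgeR 4.0.16 in R 4.3.3 (TMM factors, filterByExpr, quasi-likelihood test), with 1 coefficient per genotype and day over all 24 libraries (16 residual degrees of freedom), and p-values were adjusted by Benjamini-Hochberg over 14535 genes. CPM values are scaled by TMM factors, and log2 CPM uses a prior count of 2. The gene with the highest mean TPM of each role, Mki67, the largest and smallest change of each comparison, called genes and exceptions were named, with up to 3 genes per list. Library totals of 19952047 to 31049798 counts limit the precision of low genes. No 2 libraries of a group agreed within sampling noise (chi-square per degree of freedom 7.1 to 125). Where the labels do not show separate cultures, p-values measure the spread between libraries, which may be technical.

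Mouse numbers recur over days. The deviations of same-numbered libraries correlated by a mean r of 0.359 in WT and 0.00569 in KO over 11002 genes, so the numbers did not pair every KO library. The KO mean joins values of opposite sign, from -0.785 to 0.782, with 8 of 18 pairs over 0.1. For KO mouse 67, r was 0.658, 0.622 and 0.782 among days 7, 8 and 9. Against its day 10 library it was -0.629, -0.73 and -0.785. The alternatives were DESeq2 1.42.0, limma 3.58.1 on log2(TPM + 1), other filters and factors, an Xist covariate, a mouse block and libraries left out. Single libraries were left out only from the groups that a comparison used.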

Additional observations from a re-analysis of the deposited data

How the results depend on the processing

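For day 8 against day 7 in WT, 24 genes passed the test, against 50 with only the libraries compared in the fit, 41 without the 4 KO libraries with high Ddx3y, 43 with a term for high Ddx3y, and 6 to 23 with single libraries left out. For day 9 against day 8 in WT, 31 passed, against 49 with no filter on low counts, 50 with only the libraries compared, 8 on log2(TPM + 1), 50 without the 4 KO libraries, 50 with the term, and 1 to 18 with single libraries left out. For day 10 against day 9 in WT, 0 passed, against 1 with only the libraries compared and 1 without the 4 KO libraries. For day 8 against day 7 in KO, 1 passed, against 3 with no filter, 2 with DESeq2, 2 on TPM, 2 with Xist as covariate, 9 without the 4 and 8 without the 8 libraries with high Ddx3y, 5 with the term, and 1 to 8 with single libraries left out. For day 9 against day 8 in KO, 4 passed, against 45 with no filter, 9 with a mean of at least 50 counts, 23 with DESeq2, 0 with only the libraries compared, 1 on TPM, 19 with Xist, 43 without the 4, 35 without the 8, 49 with the term, and 1 to 45 with single libraries left out. For day 10 against day 9 in KO, leaving out single libraries gave 0 to 1. For KO against WT on day 7, 0 passed, against 7 with no filter, 2 with DESeq2, 2 with only the libraries compared, 41 without the 4, 25 without the 8 and 37 with the term. The share of all genes called moved too: over the alternatives, from 19.9% to 52.1% and from 0.977% to 14.6% at the first and second WT step, from 19.4% to 48.3% and from 0% to 8.26% at those of KO, and from 0.165% to 5.76% for KO against WT on day 7. The cause of these shifts was not tested. Day 10 against day 7 gave 50 in WT and 48 to 50 in KO, and KO against WT on days 8 to 10 and the 4 interactions gave 0, under the alternatives run. A replicate block for the mouse gave 23 and 28 for the first and second WT step, 1 and 3 in KO and 0 for KO against WT on day 7, and it moved no count by over 1.5 times, but Ttk for day 9 against day 8 in KO and Gtse1 and Gadd45b on day 7 no longer passed under it (adjusted p of 0.0537, 0.181 and 0.0757). The block used the KO mouse numbers, which go against 1 animal per number. It therefore cannot show what pairing by animal would give where KO libraries enter. Over 79 changes of named genes, each in 1 comparison, there were 1367 alternative values, of which 1259 kept their direction and their side of the threshold, 47 newly passed it, 53 no longer passed and 8 changed sign. The 8 were values near 0 that did not pass: Cenpa for KO against WT on day 7 (0.037 on TPM, and -0.060 to 0.036 with single libraries left out) and Smc4 for the interaction from day 7 to 10 (0.086 without the 4 and 0.12 without the 8 libraries with high Ddx3y, and -0.37 to 0.15 with single libraries left out). Without KO day 8 mouse 67 the median change was -0.24 from day 7 to 8 and 1.67 from day 8 to 9.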
